A study of Capra hircus with 6 samples.

Results

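The genes of 10 receptors for metabolic and peptide hormones were followed in the goat hypothalamus around puberty. They were chosen by name as LEPR, INSR, MC3R, MC4R, NPY1R, NPY5R, GHSR, GLP1R, PRLHR and CRHR2, and all 10 were found among the 20225 genes of the mRNA table. Hypothalamus was taken from 3 pubertal female Anhuai goats, aged 4.5 to 5 months and killed in the late follicular phase, and from 3 prepubertal females aged 2.5 to 3 months, kept under the same conditions on a single farm. No treatment is described, and each library came from 1 goat. The study gives a higher average body weight for the pubertal goats. Stage, age, body weight and ovarian phase cannot be told apart in this design. The unit was FPKM, fragment numbers corrected for transcript length and for the mapped fragments of each library, and the FPKM of all transcripts of a gene were summed.

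These receptors let hypothalamic neurons read the state of the body. LEPR and INSR receive leptin from fat and insulin from the pancreas, and GHSR receives ghrelin from the stomach. In the arcuate nucleus, AGRP and NPY neurons drive feeding and POMC neurons restrain it, and their signals are read by the melanocortin receptors MC3R and MC4R and by the NPY receptors NPY1R and NPY5R. Energy stores have long been linked to the timing of puberty, and leptin, melanocortins and NPY are known to act on the circuits that control GnRH release.

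For none of the 10 receptor genes was a difference between pubertal and prepubertal goats detected beyond the spread among goats. With limma on log2(FPKM + 1) over 16397 genes with a mean of at least 0.1 FPKM, 0 of the 10 had an adjusted p-value under 0.05, and this was also true of 0% of all genes. Without adjustment 0 of the 10 lay under 0.05, against 5.16% of all genes tested (575 genes higher and 271 lower in pubertal goats, or 454 and 407 with each library centred on its median and 462 and 377 after quantile normalization). The stages overlapped in all 10 receptor genes, where 9.75% of all genes did not overlap. Pubertal goats had the lower mean on the log2 scale in 7 of the 10, as in 50.2% of all genes, and the median log2 fold change of the 10 was -0.08, beside 0.00 (-0.000653) over all genes. The largest difference was that of LEPR (log2 fold change -0.30) and the largest in the other direction that of NPY1R (0.11).

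**Figure D1:**
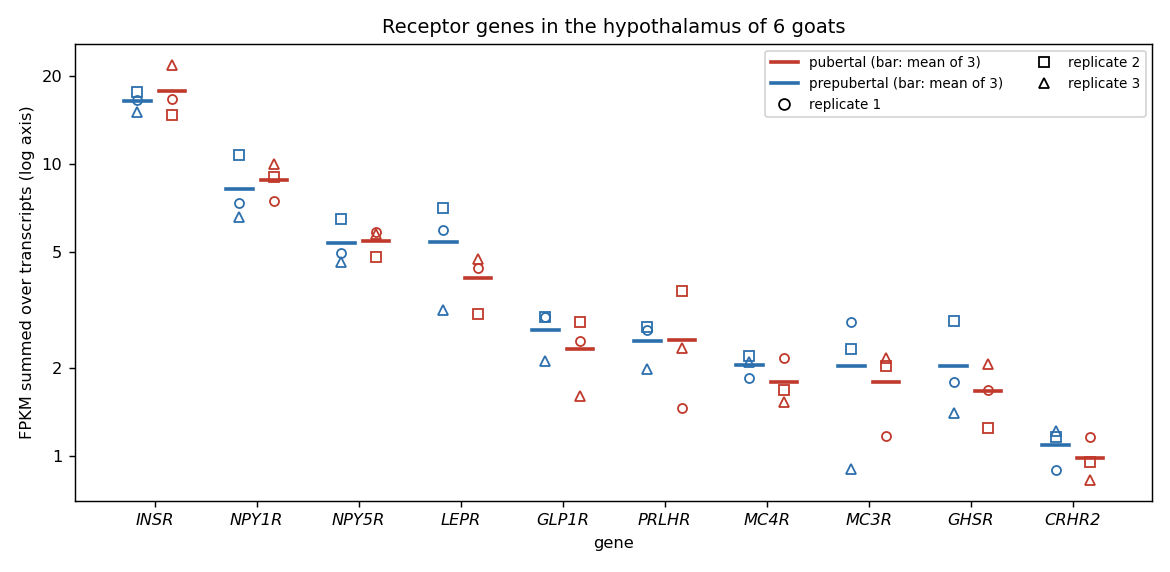
Summed FPKM of the 10 receptor genes (log axis) in each of the 6 libraries, ordered by mean level, with blue for prepubertal and red for pubertal goats, symbols for replicates and bars for the mean of 3. Pubertal and prepubertal symbols overlap in every gene, and prepubertal replicate 2 is the highest library for LEPR, NPY1R, NPY5R, MC4R and GHSR.

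**Figure D2:**
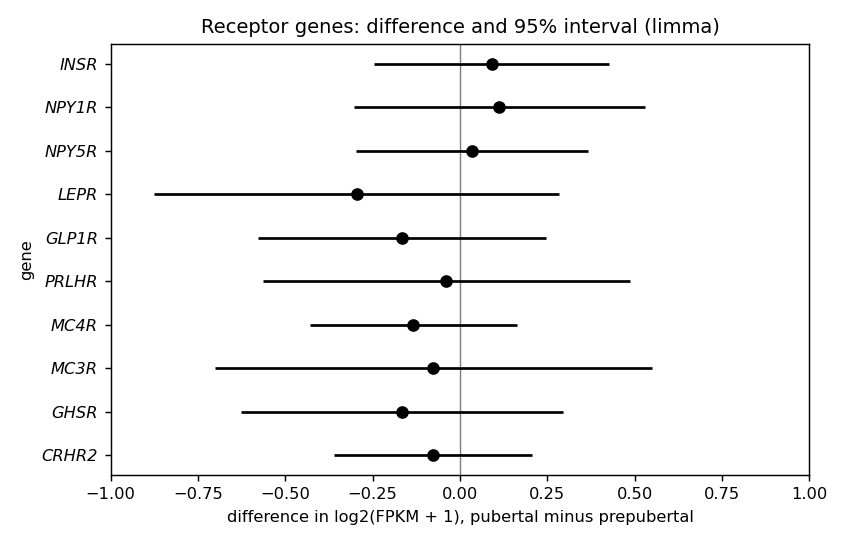
Difference in log2(FPKM + 1), pubertal minus prepubertal, for the 10 receptor genes, with points for the estimate and lines for the 95% interval from limma. All 10 intervals include 0, and they are widest for MC3R (-0.70 to 0.55) and LEPR (-0.88 to 0.28).

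LEPR, the leptin receptor, reached 4.41, 3.07 and 4.74 FPKM in the pubertal libraries (replicates 1, 2 and 3) compared with 5.97, 7.07 and 3.16 FPKM in the prepubertal libraries. Prepubertal replicates 1 and 2 lay above all pubertal libraries, while prepubertal replicate 3 was close to the lowest pubertal library. The means were 4.07 ± 0.888 and 5.40 ± 2.02 FPKM (mean ± SD, n = 3 goats per stage), and the log2 fold change was -0.30 (standard error, SE, 0.25, 95% interval -0.88 to 0.28, adjusted p = 0.962 from limma). Single libraries moved the size of this difference. It was -0.10 without prepubertal replicate 2 and -0.14 without pubertal replicate 2. Without prepubertal replicate 3, the log2 fold change of LEPR was -0.58 with an unadjusted p of 0.0164 and an adjusted p of 0.994 from limma, where the adjusted p ran from 0.641 to 0.999994 over all alternatives.

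INSR, the insulin receptor, was the most abundant of the 10. It measured 16.8, 14.7 and 21.9 FPKM across pubertal replicates 1, 2 and 3 and 16.6, 17.7 and 15.1 FPKM across prepubertal replicates 1, 2 and 3. Pubertal replicate 3 stood above the other 5 libraries, which lay close together. The means were 17.8 ± 3.73 and 16.5 ± 1.30 FPKM (mean ± SD, n = 3 goats per stage), and the log2 fold change was 0.09 (SE 0.15, 95% interval -0.25 to 0.43, adjusted p = 0.970 from limma), and without pubertal replicate 3 it was -0.06.

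The melanocortin receptors bind the peptides cut from POMC and are blocked by AGRP. MC4R is the one whose loss causes obesity in mammals, and MC3R has been tied to growth and the timing of maturation. MC3R reached 1.17, 2.04 and 2.17 FPKM in the pubertal libraries (replicates 1, 2 and 3) compared with 2.88, 2.33 and 0.903 FPKM in the prepubertal libraries. Its highest and its lowest library were both prepubertal. The log2 fold change was -0.08 (SE 0.27, 95% interval -0.70 to 0.55, adjusted p = 0.991 from limma), and it was 0.13 without prepubertal replicate 1. MC4R measured 2.17, 1.68 and 1.53 FPKM across pubertal replicates 1, 2 and 3 and 1.86, 2.20 and 2.11 FPKM across prepubertal replicates 1, 2 and 3. Pubertal replicate 1 lay among the prepubertal libraries and the other two lay below them. The means were 1.79 ± 0.335 and 2.05 ± 0.177 FPKM (mean ± SD, n = 3 goats per stage), and the log2 fold change was -0.13 (SE 0.13, 95% interval -0.43 to 0.16, adjusted p = 0.962 from limma).

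NPY1R and NPY5R are receptors through which NPY stimulates feeding, and no other gene lies between them in the RefSeq gene order of the ARS1.2 assembly. NPY1R reached 7.46, 9.07 and 10.1 FPKM in the pubertal libraries (replicates 1, 2 and 3) compared with 7.35, 10.7 and 6.61 FPKM in the prepubertal libraries. The pubertal range lay inside the prepubertal one. Its log2 fold change was 0.11 (SE 0.18, 95% interval -0.30 to 0.53, adjusted p = 0.970 from limma), but -0.43 with its highest transcript only. NPY5R measured 5.88, 4.79 and 5.76 FPKM across pubertal replicates 1, 2 and 3 and 4.97, 6.49 and 4.62 FPKM across prepubertal replicates 1, 2 and 3, with its highest and lowest library in prepubertal goats. For NPY5R the log2 fold change was 0.03 (SE 0.14, 95% interval -0.30 to 0.37, adjusted p = 0.9925 from limma), and with each library centred on its median it was -0.0033 and after quantile normalization -0.03.

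GHSR is the ghrelin receptor, GLP1R the receptor of the gut and brainstem peptide GLP-1, which restrains feeding, and PRLHR the receptor of prolactin releasing peptide. GHSR reached 1.68, 1.25 and 2.07 FPKM in the pubertal libraries (replicates 1, 2 and 3) compared with 1.79, 2.90 and 1.41 FPKM in the prepubertal libraries. Only prepubertal replicate 2 lay outside the range of the pubertal libraries. The log2 fold change of GHSR was -0.17 (SE 0.20, 95% interval -0.63 to 0.29, adjusted p = 0.969 from limma), and without that library it was 0.03. GLP1R measured 2.48, 2.87 and 1.60 FPKM across pubertal replicates 1, 2 and 3 and 2.98, 2.98 and 2.11 FPKM across prepubertal replicates 1, 2 and 3. The 2 highest libraries were prepubertal and the lowest was pubertal replicate 3, and the log2 fold change was -0.17 (SE 0.18, 95% interval -0.58 to 0.25, adjusted p = 0.962 from limma), but -0.000354 without that library. PRLHR reached 1.46, 3.67 and 2.35 FPKM in the pubertal libraries (replicates 1, 2 and 3) compared with 2.70, 2.78 and 1.99 FPKM in the prepubertal libraries. Its highest and lowest library were both pubertal, and its log2 fold change was -0.04 (SE 0.23, 95% interval -0.57 to 0.49, adjusted p = 0.994 from limma), or 0.19 without pubertal replicate 1.

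CRHR2, the receptor of the urocortins, peptides of the CRH family that restrain feeding, was the least abundant of the 10. It measured 1.17, 0.957 and 0.827 FPKM across pubertal replicates 1, 2 and 3 and 0.895, 1.16 and 1.22 FPKM across prepubertal replicates 1, 2 and 3. The stages overlapped almost fully. The log2 fold change of CRHR2 was -0.08 (SE 0.12, 95% interval -0.36 to 0.21, adjusted p = 0.970 from limma). In whole hypothalamus, fewer cells that carry a receptor and less receptor RNA per cell cannot be told apart.

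Since FPKM is scaled by length, the levels of the receptors were ordered. From the highest mean over the 6 libraries the order was INSR (17.1 FPKM), NPY1R (8.55), NPY5R (5.42), LEPR (4.74), GLP1R (2.51), PRLHR (2.49), MC4R (1.92), MC3R (1.92), GHSR (1.85) and CRHR2 (1.04 FPKM). INSR lay above 64.3% of the genes tested and CRHR2 above 14.4%. The upper gene was higher in 6 of 6 libraries for INSR over NPY1R, NPY1R over NPY5R, LEPR over GLP1R and GHSR over CRHR2. For these 4 of the 9 neighbouring pairs the exact sign-flip permutation test gave p = 0.03125, the smallest that 6 libraries allow, and the adjusted p over the 9 pairs was 0.0703. INSR was 2.01-fold above NPY1R, NPY1R 1.55-fold above NPY5R, LEPR 1.81-fold above GLP1R and GHSR 1.67-fold above CRHR2, as geometric means of (FPKM + 0.1). With the highest transcript of each gene only, NPY1R no longer lay above NPY5R (log2 difference -0.0457), and LEPR over GLP1R shrank to a log2 difference of 0.27 (exact permutation p = 0.219, adjusted p = 0.492). In that setting NPY5R over LEPR was 0.84 (exact permutation p = 0.03125, adjusted p = 0.0938). The neighbours from GLP1R down to GHSR did not differ beyond their spread over the libraries, with p between 0.281 and 1, and neither did NPY5R and LEPR (p = 0.156, exact two-sided permutation tests).

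The goats differed among themselves to different degrees from receptor to receptor. The coefficient of variation over the 6 libraries was highest for MC3R (38.7%), LEPR (33.2%), GHSR (31.9%) and PRLHR (30.4%) and lowest for NPY5R (13.6%) and MC4R (14.5%). Among the 2506 genes within 1.5-fold of the level of LEPR, the median coefficient of variation was 14.2%, and among the 1516 genes within 1.5-fold of the level of MC4R it was 21.7%. LEPR thus varied more, and MC4R less, than the median gene of like level. INSR, MC3R, NPY1R, GHSR, GLP1R and PRLHR also varied more than theirs. CRHR2 varied less (15.9% against 29.3%), and NPY5R was close to the median of its level (13.3%). The coefficient over 6 libraries also holds any difference between the stages.

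Receptors that share a ligand or an input were also compared as ratios within a library, which depend little on its scaling. The log2 ratio of INSR to LEPR, with 0.1 FPKM added to each, was 1.90, 2.23 and 2.19 in pubertal and 1.46, 1.31 and 2.22 in prepubertal replicates 1, 2 and 3. Prepubertal replicates 1 and 2 had the lowest ratios, and prepubertal replicate 3 lay among the pubertal libraries. The difference was 0.44 (exact two-sided permutation test, p = 0.3, where 0.1 is the smallest that 3 against 3 allows, adjusted p = 0.8 over the 4 ratios). The other differences were -0.12 for MC4R to MC3R, 0.09 for NPY1R to NPY5R and -0.20 for CRHR2 to CRHR1, with exact permutation p-values between 0.6 and 0.8. CRHR1 is the main receptor of CRH itself, at a mean of 2.81 FPKM. No ratio differed between the stages beyond the spread of the goats, and the ratio of MC4R to MC3R turned to 0.37 without prepubertal replicate 3.

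The 10 genes had 22 annotated transcripts, 9 of LEPR, 3 of INSR, 3 of NPY1R and 1 of each other gene. Of the 22, 3 were listed at 0 in all libraries, all of LEPR, and 17 had a mean of at least 0.1 FPKM and were tested. After adjustment 0 of the 17 passed in limma, as did 0% of 23821 mRNA transcripts. Before adjustment 3 of the 17 lay under 0.05, against 4.87% of all, and 2 of the 17 had stages that did not overlap, against 9.56% of all. These transcripts belonged to NPY1R and LEPR. With 1 library left out, XM_013964443.1 of NPY1R stayed under 0.05 without pubertal replicate 1 (unadjusted p = 0.0195, adjusted p = 0.409 from limma) or prepubertal replicate 2 (unadjusted p = 0.00199, adjusted p = 0.817 from limma). XM_005681252.2 of NPY1R stayed under it without pubertal replicate 3 and XM_013962772.1 of LEPR without pubertal replicate 2. None of the 3 did without prepubertal replicate 1 or 3. Their log2 fold changes ran from 0.83 to 1.41, from -0.54 to -0.29 and from 0.31 to 0.47.

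The total of NPY1R overlapped between the stages, while the shares of 2 of its transcripts did not. XM_005681252.2, of 2852 nt, reached 4.60, 3.42 and 5.23 FPKM in the pubertal libraries (replicates 1, 2 and 3) compared with 5.88, 7.21 and 5.70 FPKM in the prepubertal libraries, so that all pubertal libraries lay below all prepubertal ones (log2 fold change -0.43, SE 0.17, unadjusted p = 0.0408, adjusted p = 0.972 from limma). XM_013964443.1, of 3202 nt, measured 2.26, 4.82 and 3.72 FPKM across pubertal replicates 1, 2 and 3 and 0.647, 2.70 and 0.714 FPKM across prepubertal replicates 1, 2 and 3. Here prepubertal replicate 2 lay above pubertal replicate 1, and the other two prepubertal libraries lay below all pubertal ones (log2 fold change 1.03, SE 0.36, unadjusted p = 0.0248, adjusted p = 0.972 from limma). The third transcript, XM_013964444.1, lay between 0.194 and 1.11 FPKM with no separation of the stages.

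As a share of the summed FPKM of NPY1R, XM_005681252.2 held 61.7%, 37.7% and 52.0% in pubertal and 80.0%, 67.3% and 86.3% in prepubertal replicates 1, 2 and 3. It was 50.4% ± 12.1 against 77.8% ± 9.68 (SD, n = 3 each), 27.4 percentage points lower in pubertal goats, with no overlap. XM_013964443.1 held 30.3%, 53.1% and 37.0% in pubertal and 8.81%, 25.2% and 10.8% in prepubertal replicates, 25.2 percentage points higher in pubertal goats, again with no overlap. Both shares gave an exact two-sided permutation p of 0.1, the smallest possible here, and an adjusted p of 0.333 over the 10 shares compared. They are parts of the same total, of which XM_013964444.1 held only 2.94% to 11.2%. A fall in one is thus largely a rise in the other, and they are not separate observations. Over all genes with several transcripts, 9.33% of 11442 shares had stages that did not overlap, and 2.86% differed by at least 25 percentage points. That cutoff lies just below the 2 NPY1R differences, and the shares were added with their values in view. The 2.86% therefore does not measure how rare these differences are. Transcripts of 1 gene commonly share exons, so their FPKM rest on how the authors' software divided common fragments among them. No count of fragments is held, so the precision of that division is unknown.

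**Figure D3:**
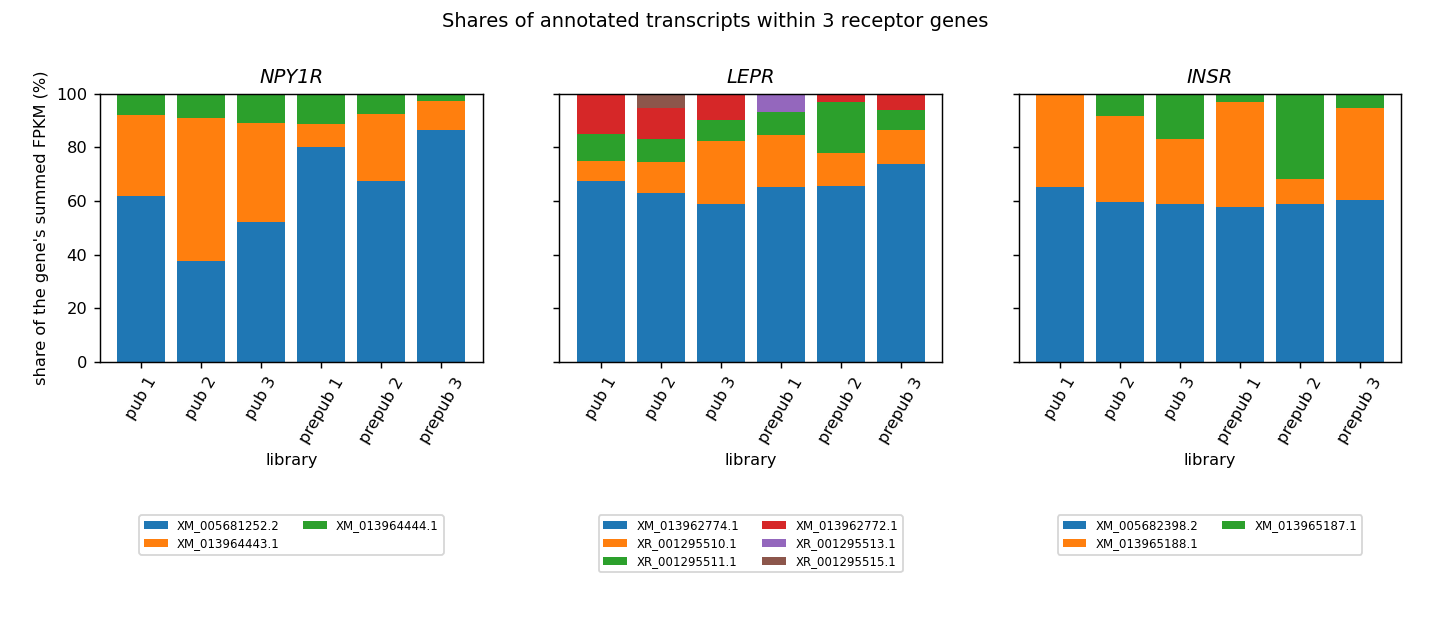
Share of each annotated transcript in the summed FPKM of NPY1R, LEPR and INSR (percent), one bar per library, pubertal replicates at the left of each panel. In NPY1R the lower segment, XM_005681252.2, is smaller in the 3 pubertal than in the 3 prepubertal libraries, and in INSR prepubertal replicate 2 stands apart in how 2 transcripts are divided.

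Among the LEPR transcripts, XM_013962774.1 of 3711 nt was the most abundant and followed the gene, with 2.98, 1.93 and 2.80 FPKM across pubertal replicates 1, 2 and 3 and 3.88, 4.63 and 2.33 FPKM across prepubertal replicates 1, 2 and 3. XM_013962772.1 of 4088 nt went the other way, with 0.664, 0.351 and 0.474 FPKM across pubertal replicates 1, 2 and 3 and 0, 0.212 and 0.199 FPKM across prepubertal replicates 1, 2 and 3. Its stages did not overlap (log2 fold change 0.40, SE 0.15, unadjusted p = 0.0368, adjusted p = 0.972 from limma). It held 15.0%, 11.4% and 9.99% of LEPR in pubertal and 0%, 2.99% and 6.30% in prepubertal replicates (exact permutation p = 0.1, adjusted 0.333). The 7 transcripts of LEPR annotated as noncoding, with XR identifiers, made the coding share run from 65.0% to 82.5% over the libraries, with the stages overlapping.

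INSR had XM_005682398.2, of 8709 nt, as its main transcript, at 59.0% to 65.3% of the gene in pubertal and 57.8% to 60.2% in prepubertal libraries. The other two, XM_013965187.1 and XM_013965188.1, differ in length by 3 nt. XM_013965187.1 ran from 0.115 FPKM in pubertal replicate 1 to 5.61 FPKM in prepubertal replicate 2, with the stages overlapping. The sum of both was steadier, with 5.81, 5.94 and 8.99 FPKM across pubertal replicates 1, 2 and 3 and 7.005, 7.29 and 6.005 FPKM across prepubertal replicates 1, 2 and 3. Single values of these transcripts, which are nearly equal in length, are therefore given as uncertain.

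The ligands of the receptors were measured in the same libraries. AGRP, the blocker of melanocortin receptors, measured 22.7, 5.69 and 28.3 FPKM across pubertal replicates 1, 2 and 3 and 97.5, 176 and 22.3 FPKM across prepubertal replicates 1, 2 and 3 (log2 fold change -2.15, unadjusted p = 0.0238, adjusted p = 0.883 from limma). POMC, the source of their activators, reached 34.4, 85.1 and 429 FPKM in the pubertal libraries (replicates 1, 2 and 3) compared with 47.4, 22.9 and 24.3 FPKM in the prepubertal libraries (log2 fold change 1.83, unadjusted p = 0.0473, adjusted p = 0.959 from limma). POMC is also a gene of the pituitary. Pubertal replicate 3, its highest library, was the one library with GH1 above 0 (7.79 FPKM). It had the most FSHB (1.09 FPKM), POU1F1 (0.539 FPKM) and TSHB (4.04 FPKM) of the 6 libraries. The choroid plexus marker TTR was also highest there (309 FPKM). The other pituitary markers measured, CGA (62.5 FPKM), LHB (1.16 FPKM) and PITX1 (0.793 FPKM), were highest in pubertal replicate 2. NPY measured 28.6, 20.3 and 92.3 FPKM across pubertal replicates and 84.1, 192 and 47.0 FPKM across prepubertal replicates (log2 fold change -1.25, adjusted p = 0.962 from limma). The stages overlapped in all 3 of these peptides. CRH lay between 1.14 and 2.63 FPKM, UCN between 0.163 and 0.639 FPKM, and UCN2, UCN3 and GCG, the precursor of GLP-1, had means between 0.120 and 0.162 FPKM. LEP was above 0 in pubertal replicates 1 and 3, at 0.0168 and 0.0218 FPKM, GHRL in prepubertal replicate 2 at 0.473 FPKM, and PRLH was listed at 0 in all libraries. Leptin and ghrelin are made mainly outside the brain. INS was not analysed here.

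**Figure D4:**
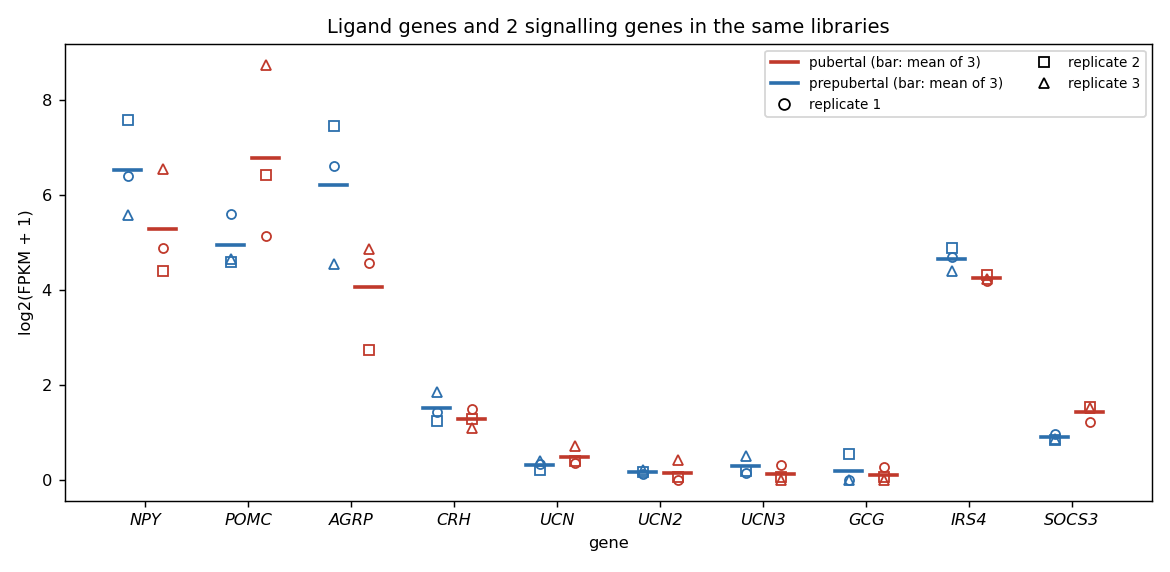
log2(FPKM + 1) of the tested ligand genes and of IRS4 and SOCS3 in the 6 libraries, with colours, symbols and bars as for the receptors. NPY, POMC and AGRP spread widely within each stage, whereas the pubertal libraries of SOCS3 lie above, and those of IRS4 below, all prepubertal libraries.

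Of 79 other genes listed for these pathways, 60 were tested, and 0 passed the adjusted threshold in limma. Before adjustment, 3 were higher (SOCS3, SHC1 and POMC) and 2 lower (IRS4 and AGRP) in pubertal goats, against 3.51% and 1.65% of all genes. Their median log2 fold change was 0.00 (-0.00447). The leptin and insulin signalling list held 26 tested genes, 2 with an unadjusted p under 0.05 and higher, and 1 lower. SOCS3, which is induced by leptin signalling and damps it, reached 1.32, 1.92 and 1.87 FPKM in the pubertal libraries (replicates 1, 2 and 3) compared with 0.952, 0.806 and 0.827 FPKM in the prepubertal libraries, with no overlap (log2 fold change 0.53, SE 0.13, unadjusted p = 0.00339, adjusted p = 0.733 from limma). IRS4, an adaptor of the insulin receptor that is abundant in hypothalamus, measured 17.2, 19.0 and 17.9 FPKM across pubertal replicates and 24.95, 28.8 and 20.1 FPKM across prepubertal replicates, also with no overlap (log2 fold change -0.42, SE 0.13, unadjusted p = 0.0132, adjusted p = 0.808 from limma). Neither passed the adjusted threshold. Of the 60 genes, 3 (SOCS3, SHC1 and IRS4) had stages that did not overlap, against 9.75% of all genes tested.

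In the melanocortin list 14 genes were tested, with POMC and AGRP as the lowest p-values given above. Of the 14, 3 had a log2 fold change above 0 at any p-value, as did 8160 of all 16397 genes tested. The NPY family list had 3 tested genes, of which NPY and DPP4, a peptidase that cleaves NPY and GLP-1, had the lowest p-values (DPP4 log2 fold change 0.62, adjusted p = 0.962 from limma). The ghrelin, incretin and RF-amide list had 11, with the lowest p-values for QRFPR (log2 fold change 0.17) and NPFFR2 (-0.18), both receptors of RF-amide peptides, and the CRH and urocortin list had 6, with UCN (0.18) and CRH (-0.22). In these 4 lists POMC and AGRP were the genes with an unadjusted p-value under 0.05.

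The receptors were next compared with each other and with 8 tested ligands across the goats, on log2(FPKM + 1). Of 45 pairs of receptors, 3 had an unadjusted permutation p under 0.05 and 0 an adjusted one. For LEPR and GHSR, Pearson r was 0.894 (exact permutation p = 0.0125, adjusted 0.4375) and Spearman rho was 0.943 (exact permutation p = 0.0167, adjusted 0.6125), and r was 0.706 without the 2 libraries farthest from the median of LEPR. MC4R and CRHR2 gave r = 0.919 (exact permutation p = 0.0292, adjusted p = 0.4375) and a rho of 0.714 (exact permutation p = 0.136, adjusted 0.6125), and NPY5R and GHSR an r of 0.862 (exact permutation p = 0.0236, adjusted 0.4375) and a rho of 0.771 (exact permutation p = 0.103, adjusted 0.6125). Without the 2 farthest libraries r was 0.925 for MC4R and CRHR2 and 0.651 for NPY5R and GHSR.

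Of the 80 pairs of a receptor and a ligand, 11 had an unadjusted permutation p under 0.05, against 5.6% of the 131168 pairs of the same ligands with any other tested gene, and 0 an adjusted one, the lowest adjusted p being 0.244. The pairs share genes and libraries and are not independent. This comparison was added after the values had been seen. Every receptor was paired with every tested ligand, so many pairs do not join a receptor to its own ligand. Among those that do, MC4R with POMC and CRHR2 with UCN3 were in the 11. NPY1R with NPY (Pearson r 0.481), NPY5R with NPY (0.573), GLP1R with GCG (0.451) and MC4R with AGRP (0.411) were not. Nor were MC3R with POMC (0.348) or AGRP (0.451), or CRHR2 with UCN (-0.634) or UCN2 (-0.441). Besides the pairs described below, the 11 held these, with Pearson r and then r without the 2 libraries farthest from the ligand's median. CRHR2 with POMC gave -0.845 and -0.867, NPY1R with CRH -0.889 and -0.935, and CRHR2 with UCN3 0.851 and 0.727. GLP1R with UCN gave -0.881 and -0.447, and MC4R with UCN -0.793 and -0.168. GHSR with AGRP gave 0.840 and 0.287, LEPR with NPY 0.842 and 0.510, and NPY5R with GCG 0.801 and -0.318. GCG was listed at 0 in pubertal replicate 3 and prepubertal replicates 1 and 3. LEPR and AGRP had the same order in all 6 libraries (Spearman rho 1, exact permutation p = 0.00278, adjusted 0.222), with a Pearson r of 0.928 (exact permutation p = 0.0125, adjusted 0.244). Without pubertal replicate 2 and prepubertal replicate 2, the libraries farthest from the median of AGRP, r was 0.813, and with the mean of each stage removed it was 0.984. GHSR and NPY gave r = 0.904 (exact permutation p = 0.0153, adjusted p = 0.244) and a rho of 0.943 (exact permutation p = 0.0167, adjusted 0.267), and r fell to 0.622 without the 2 farthest libraries. AGRP neurons of the arcuate nucleus are known to carry both LEPR and GHSR, and whether this bears on these pairs was not tested. For MC4R and POMC the correlation was negative, with an r of -0.929 (exact permutation p = 0.00417, adjusted 0.244) and a rho of -0.943 (exact permutation p = 0.0167, adjusted 0.267). That r was -0.817 without pubertal replicates 2 and 3 and -0.785 on FPKM as deposited. The part of the pituitary and choroid plexus markers of pubertal replicate 3 in the POMC values was not tested.

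**Figure D5:**
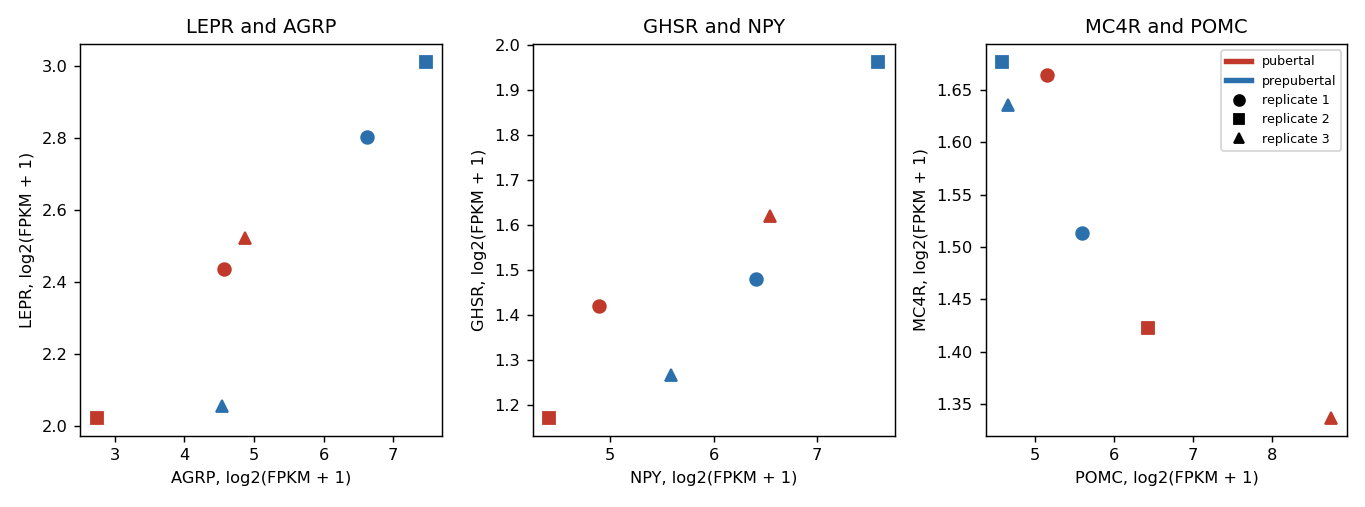
log2(FPKM + 1) of LEPR against AGRP, GHSR against NPY and MC4R against POMC, with 1 point per library (red pubertal, blue prepubertal, symbols for replicates). LEPR follows AGRP in the same order in all 6 libraries, while MC4R is lowest in pubertal replicate 3, where POMC is highest.

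Marker genes of other cell types differed between goats. The 4 neuronal markers measured summed to 965 to 1184 FPKM in pubertal and 1094 to 1208 FPKM in prepubertal libraries, and hypothalamic SIM1, FEZF1, NR5A1 and PMCH were above 0 in every library. AVP was listed at 0 in all libraries, which for a gene so abundant in this tissue may be a failed estimate, so a value of 0 was not read as absence. The 7 pituitary and pars tuberalis markers measured summed to 53.0 to 66.8 FPKM in pubertal and 3.75 to 21.1 FPKM in prepubertal libraries. These sums did not overlap and were mostly CGA, at 39.4 to 62.5 FPKM in pubertal and 2.24 to 18.0 FPKM in prepubertal libraries. Of the 7, 3 (CGA, TSHB and PITX1) were higher with an unadjusted p under 0.05 in limma, against 3.51% of all genes. The same 3 did not overlap, against 9.75% of all genes, while POU1F1, GH1, LHB and FSHB overlapped between the stages. Choroid plexus markers summed to 315 FPKM in pubertal replicate 3 and to between 3.98 and 56.2 FPKM in the others. Nearly all of the highest sums was TTR, at 309 FPKM in pubertal replicate 3 and 53.4 FPKM in prepubertal replicate 1. FOLR1, KCNE2, CLIC6 and AQP1 were also highest in pubertal replicate 3, at 0.429 to 2.34 FPKM, while OTX2 was lowest there (1.15 FPKM). The oligodendrocyte markers MOG and MAG ran from 73.7 to 115 and from 101 to 152 FPKM. MBP, the other oligodendrocyte marker tested, ran from a listed 0 in prepubertal replicate 1, which may again be a failed estimate, to 3333 FPKM in pubertal replicate 1. The astrocyte, microglia, endothelial, tanycyte, thalamus and telencephalon lists overlapped between the stages in their sums, at 3388 to 3758 and 3423 to 3585 FPKM for astrocytes, 205 to 245 and 194 to 218 FPKM for microglia and 20.8 to 29.3 and 17.8 to 24.3 FPKM for endothelium in pubertal and prepubertal goats. Within these lists ALDH1L1 of astrocytes (log2 fold change 0.62, unadjusted p = 0.0103, adjusted p = 0.795 from limma) and C1QA of microglia (0.42, unadjusted p = 0.00901, adjusted p = 0.795 from limma) lay higher in all pubertal than in all prepubertal libraries. Tanycyte markers lay between 86.8 and 146 FPKM, thalamic markers between 28.7 and 35.8 FPKM and telencephalic markers between 1.14 and 2.62 FPKM over all libraries. Pearson r between libraries was 0.976 to 0.990 over the genes tested. The part of these differences in the NPY1R and LEPR transcript shares and in SOCS3 and IRS4 was not tested. Leaving out each library in turn, the NPY1R share of XM_005681252.2 differed by -33.0 to -21.0 percentage points, with a sign that the lack of overlap fixes.

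Near 2 of the receptor genes the study placed a lncRNA locus, XLOC_1486935 beside PRLHR and XLOC_534510 within 100 kb of MC3R. The study's list of neighbours was held here only in part, so other receptor genes may have neighbouring lncRNA loci too. TCONS_03064890 of XLOC_1486935 and TCONS_01129665 of XLOC_534510 were the transcripts at these loci whose pubertal libraries all lay above the prepubertal ones, so the last 300 bases of each are given as deposited, in lower case because no AATAAA polyadenylation signal was found on the given strand.
TCONS_03064890: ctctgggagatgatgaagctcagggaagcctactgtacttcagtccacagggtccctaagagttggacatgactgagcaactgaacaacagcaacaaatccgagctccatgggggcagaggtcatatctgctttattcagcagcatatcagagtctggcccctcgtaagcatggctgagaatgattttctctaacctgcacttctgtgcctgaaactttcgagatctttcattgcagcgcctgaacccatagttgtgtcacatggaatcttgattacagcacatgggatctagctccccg
TCONS_01129665: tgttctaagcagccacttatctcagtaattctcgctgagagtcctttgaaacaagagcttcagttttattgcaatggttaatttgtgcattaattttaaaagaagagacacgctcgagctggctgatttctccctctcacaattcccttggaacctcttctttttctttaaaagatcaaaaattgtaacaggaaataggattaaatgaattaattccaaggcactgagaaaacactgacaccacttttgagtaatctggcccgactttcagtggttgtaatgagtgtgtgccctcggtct
That motif was found in the last 300 bases of 21.4% of 2453 lncRNAs of at least that length, and its absence here says only that these letters are not in the window.

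TCONS_01129665, of 559 nt, reached 1.34, 0.268 and 0.363 FPKM in the pubertal libraries (replicates 1, 2 and 3) compared with 0.165, 0.140 and 0.135 FPKM in the prepubertal libraries. Pubertal replicate 1, the highest library of this lncRNA, was the pubertal library with the least MC3R, whereas prepubertal replicate 3, with the least MC3R of all 6, also had the least of the lncRNA. The log2 fold change of the lncRNA was 0.47 (SE 0.27, adjusted p = 0.943 from limma over 2925 lncRNA transcripts), and it was 0.20 without pubertal replicate 1. TCONS_03064890, of 490 nt, measured 2.52, 2.71 and 1.85 FPKM across pubertal replicates and 0.425, 0.361 and 0.695 FPKM across prepubertal replicates, with a log2 fold change of 1.17 (SE 0.20, unadjusted p = 0.00101, adjusted p = 0.756 from limma), while PRLHR had the same mean in both stages (2.49 FPKM). Pubertal libraries all above prepubertal ones were found in 2.87% of all lncRNA transcripts tested. TCONS_01129665 and TCONS_03064890 were picked for that order, so this share does not measure how rare they are. The other two transcripts of XLOC_1486935 overlapped between the stages.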

How the data were processed

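Total RNA of the hypothalamus was depleted of ribosomal RNA and sequenced as strand-specific paired-end reads. The authors aligned reads to the goat genome (build not given in the sources used here) with TopHat and assembled transcripts with Scripture and Cufflinks 2.1.1, and the deposited FPKM per transcript and library, normalized for length and mapped fragments, were used with no rescaling. The deposited table of the authors' Cuffdiff 2.1.1 comparison holds group means, fold changes and p-values, of which none were used, only gene identifiers and transcript lengths (column of another unit, per the file headers). The deposited lncRNA sequences were read as given. No counts are held, so depth per value is unknown and no counting interval is given.

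Symbols came from a RefSeq table of the ARS1.2 assembly (94.6% of 20225 genes matched). FPKM were summed by gene and log2(FPKM + 1) was tested with limma 3.58.1 in R 4.3.3 (eBayes with a trend, two-sided, Benjamini-Hochberg over all genes, threshold 0.05, minimum mean 0.1 FPKM). limma was tested on simulated data. Ratios, orders, shares and correlations used exact permutation tests in Python 3.11.15 with scipy 1.17.1. Whether the goats are unrelated is not stated, so p-values measure the spread between these libraries.

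The receptors, gene lists and tests were chosen with earlier results of these data known. Named were all 10 receptors, 12 ligands, the 2 genes per list with the lowest p, and for each receptor the gene most like it. SHC1, CRHR1, the marker genes and both lncRNA loci were added with their values in view, outside that rule, as were the transcript shares and the receptor and ligand pairs. Alternatives were another pseudocount, other minimums, quantile normalization, median centring, no trend, the replicate block, coding transcripts or the highest transcript only, and leaving out each library. Protein and promoter sequences of the receptors were not used here.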

Additional observations from a re-analysis of the deposited data

How the results depend on the processing

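No receptor gene passed the adjusted threshold under any of 15 alternatives (lowest adjusted p 0.449 from limma). LEPR, MC4R, GLP1R and CRHR2 did not turn sign in any of the 15, but shrank with single libraries left out, GLP1R to -0.000354 without pubertal replicate 3. The intervals given rest on the spread of 3 goats per stage, and differences smaller than these intervals could not be detected here. The values are FPKM with no counts.

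With the highest transcript of each gene only, the log2 fold change of NPY1R was -0.43, the ratio of NPY1R to NPY5R -0.55 and the log2 difference of NPY1R over NPY5R -0.0457, and 1 receptor gene had an unadjusted p under 0.05. NPY5R was at -0.0345 after quantile normalization and at -0.0033 with median centring. Samples with the same replicate number did not deviate together (r -0.0246, -0.101 and 0.0752 for numbers 1, 2 and 3), and pubertal replicate 2 correlated best with prepubertal replicate 1 (0.157). With the replicate block 1 gene of the table passed the adjusted threshold, no receptor gene did, and 1 receptor transcript in place of 3 had an unadjusted p under 0.05.

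Leaving out each library in turn gave log2 fold changes of -0.062 to 0.21 for INSR, -0.38 to 0.13 for MC3R, -0.0131 to 0.30 for NPY1R, -0.0501 to 0.16 for NPY5R, -0.32 to 0.0306 for GHSR and -0.27 to 0.19 for PRLHR. For LEPR it was -0.58 to -0.10, for MC4R -0.23 to -0.07, for GLP1R -0.29 to -0.000354 and for CRHR2 -0.15 to -0.0195. For the INSR transcripts XM_013965188.1 and XM_013965187.1 it gave -0.14 to 0.60 and -0.73 to 0.46. The ratios ran from -0.52 to 0.37 for MC4R to MC3R, from -0.0267 to 0.26 for NPY1R to NPY5R and from -0.52 to 0.0351 for CRHR2 to CRHR1. The orders ran from -0.11 to 0.14 for GLP1R over PRLHR, from -0.12 to 0.23 for MC4R over MC3R and from -0.13 to 0.12 for MC3R over GHSR. Receptor genes with an unadjusted p under 0.05 numbered 0 to 1 (LEPR, without prepubertal replicate 3), and receptor transcripts 0 to 1. Over all genes 0 to 4 passed the adjusted threshold (4 without pubertal replicate 2), and 502 to 2223 had an unadjusted p under 0.05, of which 338 to 984 were higher in pubertal goats. The extremes were without prepubertal replicate 1 and without pubertal replicate 1. Causes were not tested.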

Other observations

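For each receptor, the gene most like it over the 6 libraries was sought among 14080 genes with a mean of at least 1 FPKM, by Pearson r of log2(FPKM + 1). With so many genes and 6 points a high r is easily reached, and each receptor had between 11 and 75 genes at or above 0.95. LEPR was most like PTCH1 (r = 0.990), INSR was most like LOC102172054 (0.994), and MC3R was most like CAMK2A (0.979). MC4R was closest to SMIM13 (0.998), NPY1R to NIN (0.990), NPY5R to C27H4orf47 (0.983) and GHSR to PRKG1 (0.994). GLP1R was closest to ANKRD6 (0.996), PRLHR to ANKRD66 (0.984) and CRHR2 to RWDD3 (0.990). These are descriptions with no test.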
